A study of Arabidopsis thaliana with 4 samples.

Results

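The 9 genes described here carry nitrate into *Arabidopsis* cells and turn it into amino acids, and they were chosen by that function, with no measured value in the rule. They are *NRT1.1* (also CHL1, AT1G12110), *NRT2.1* (AT1G08090), *NRT2.2* (AT1G08100), *NIA1* (AT1G77760), *NIA2* (AT1G37130), *NIR1* (AT2G15620), *NLP7* (AT4G24020), *GLN2* (AT5G35630) and *GLN1;1* (AT5G37600), 9 of the 27444 protein-coding genes on the nuclear chromosomes. A loop was given to a gene when 1 of its anchors overlapped the region reaching from 1 kb upstream of the transcription start site (TSS) to the end of the gene by at least 1 bp. H3K4me3 ChIA-PET was made from shoots of 2-week-old seedlings of the *myc2* mutant and of wild-type Col-0. Both genotypes grew at 22 °C under 16 h of light and 8 h of dark, and both had chromatin fixed in 1.5 mM EGS for 30 min and in 1% formaldehyde for 10 min. The authors merged the 2 biological replicates of a genotype, so that 1 loop list stands for each. The labels call the mutant *myc2* and do not give its allele.

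Nitrate enters the cell through proton-coupled carriers of the NRT1 and NRT2 families. NRT1.1 works at high and at low nitrate and is also a nitrate sensor, whereas NRT2.1 and NRT2.2 serve uptake at low nitrate. Nitrate reductase, encoded by *NIA1* and *NIA2*, makes nitrite in the cytosol, and nitrite reductase, encoded by *NIR1*, makes ammonium in the plastid. Glutamine synthetase binds ammonium into glutamine, in the plastid as the product of *GLN2* and in the cytosol as the product of *GLN1;1* and related genes. NLP7 is the transcription factor that switches on much of this pathway when nitrate arrives. H3K4me3 marks the start of active genes, and ChIA-PET reads pairs of marked sites that lie together in the fixed nucleus. MYC2 is a basic helix-loop-helix transcription factor of jasmonate signalling.

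The *myc2* list holds 32312 loops with 297390 paired-end tags (PETs), and the Col-0 list holds 36723 loops with 745505 PETs. The weakest listed loop has 5 PETs in *myc2* and 10 PETs in Col-0, so a loop missing from a list is under that minimum or was not called, and is not known to be 0. Of 2 anchors at the *MYC2* gene, the one with most tags, which also overlaps the region of a neighbouring gene, held 1423 tags in *myc2* and 3562 tags in Col-0, a ratio of 0.399 (0.375 to 0.425), beside a median of 0.775 over all anchors. Of 6 genes typical of leaves, 5 had a listed loop. Summed over the 1 anchor per gene with most tags, they held 20031 tags in *myc2* and 25112 tags in Col-0. The anchors of *RBCS1A*, *RCA*, *LHCB1.1* and *GAPA* among them also overlap regions of other genes. Of 6 genes typical of roots, 1 had a listed loop, *PRP3*, with 724 tags in *myc2* and 924 tags in Col-0. Intervals in the text are 95% intervals and cover counting error only, since with 1 list per genotype no difference has a replicate check and no test between genotypes was made.

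The sequences directly upstream of the transporter genes are shown because *NRT1.1* alone of the 9 genes holds there either of the 2 hexamers searched for MYC2, CACGTG and CACATG, and because *NRT2.1* and *NRT2.2* were the 2 genes with no listed loop. Each sequence holds the 250 bases before the annotated TSS, read 5′ to 3′ in the direction of the gene from the RefSeq genome of build TAIR10.1. In *NRT1.1* (chr1:4104973-4105222, plus strand) the capitals mark CACATG, a hexamer that MYC2 can bind, on both strands in overlap.
NRT1.1: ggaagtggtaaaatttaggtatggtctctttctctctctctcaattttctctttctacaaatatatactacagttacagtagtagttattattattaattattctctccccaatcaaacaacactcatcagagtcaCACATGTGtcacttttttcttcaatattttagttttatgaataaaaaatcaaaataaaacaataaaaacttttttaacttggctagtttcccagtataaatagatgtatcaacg
In *NRT2.1* (chr1:2523773-2524022, plus strand) and *NRT2.2* (chr1:2529121-2529370, minus strand) the capitals mark runs of at least 12 bases that both windows share.
NRT2.1: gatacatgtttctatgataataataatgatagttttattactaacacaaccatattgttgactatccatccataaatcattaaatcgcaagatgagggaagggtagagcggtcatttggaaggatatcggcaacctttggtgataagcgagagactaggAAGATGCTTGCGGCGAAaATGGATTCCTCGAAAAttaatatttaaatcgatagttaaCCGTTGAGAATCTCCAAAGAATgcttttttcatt
NRT2.2: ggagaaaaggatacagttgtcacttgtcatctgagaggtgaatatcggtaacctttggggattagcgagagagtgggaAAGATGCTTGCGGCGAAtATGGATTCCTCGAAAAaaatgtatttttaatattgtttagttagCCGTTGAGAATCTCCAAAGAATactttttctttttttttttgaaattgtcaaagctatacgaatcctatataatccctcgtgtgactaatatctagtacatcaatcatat
The 3 shared runs hold 55 of the 250 bases, and the longest has 22 bases.

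The hexamer CACATG stood in the 250-base window of 1 of the 9 genes, *NRT1.1*, and in 11.1% of all genes. The G-box CACGTG, the preferred site of MYC2, was in the window of 0 of the 9 genes and of 6.49% of all genes. In windows of 1000 bases the G-box was again in 0 of the 9 genes, beside 14.8% of all genes, and CACATG was in 3 of them, *NRT1.1*, *NRT2.2* and *NIA1*, beside 37.7%. The core of the nitrate-responsive element that NLP proteins bind, read here as CTT and AAG with 10 bases between them, was in the 1000-base window of *NIR1* alone, beside 30.5% of all genes. Its letters there were CTTAAGAATACTAAAG, with the first base 652 bases before the TSS. Both strands were searched, and apart from the pair in *NRT1.1* no matches in the 9 genes overlapped. These are matches of letters and not mapped binding sites.

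Of the 9 genes, 7 had an anchor with a listed loop (77.8%, 45.3 to 93.7%), beside 64.8% (64.3 to 65.4%) of all genes. The 9 genes had 14 loops in *myc2* and 17 loops in Col-0, or 22 distinct loops, of which 9 were listed in both genotypes. *NIA1* had 6 loops in *myc2* and 7 loops in Col-0, and *NIR1* had 3 loops in each. *GLN2* had 1 loop in *myc2* and 3 loops in Col-0, and *NLP7* had 2 loops in *myc2* and 1 loop in Col-0. *NIA2* had loops in *myc2* alone, 2 of them, whereas *NRT1.1*, with 2 loops, and *GLN1;1*, with 1 loop, had them in Col-0 alone. *NRT2.1* and *NRT2.2* had none in either list. By number of loops the order in *myc2* was thus *NIA1*, *NIR1*, *NIA2* with *NLP7*, and *GLN2*, and in Col-0 it was *NIA1*, *NIR1* with *GLN2*, *NRT1.1*, and *NLP7* with *GLN1;1*. With 1 list per genotype these orders have no spread over samples, and with at least 10 PETs in both lists *GLN2*, with 1 loop in *myc2*, came before *NIA2* and *NLP7*, with 0.

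**Figure D1:**
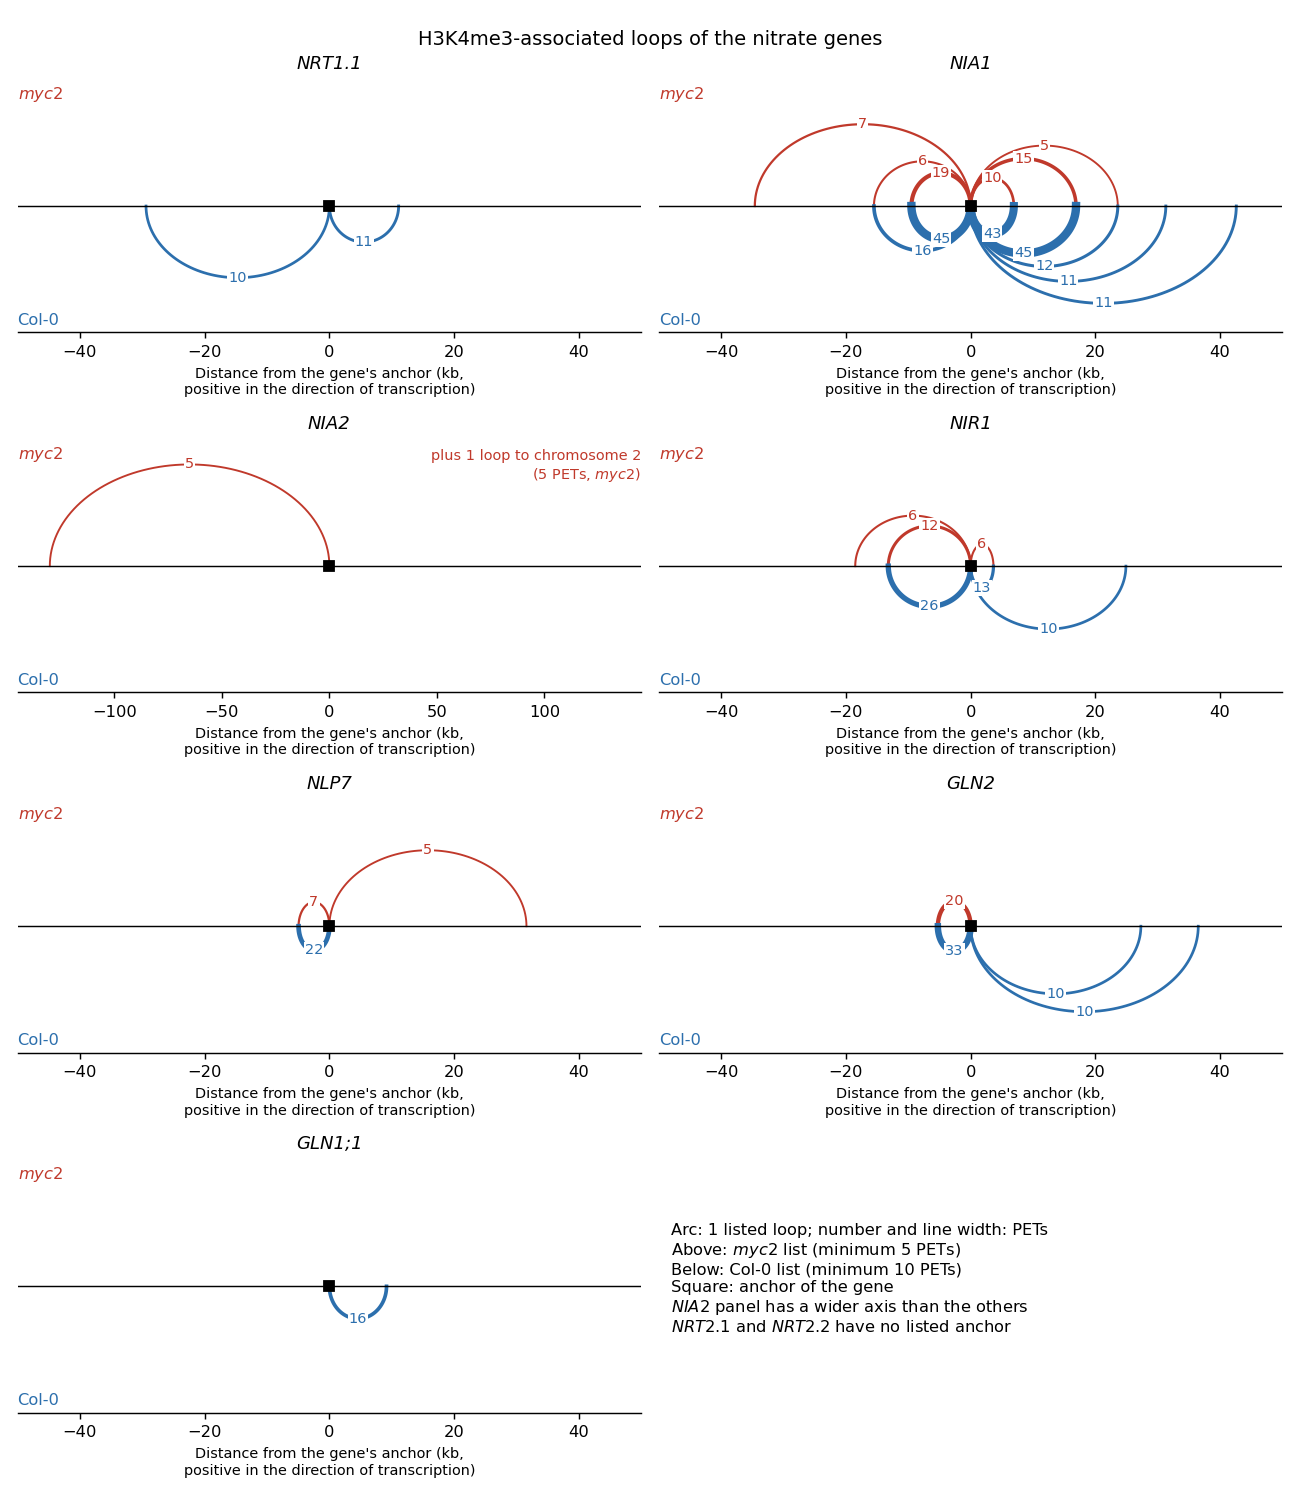
Listed loops of the 7 genes with an anchor, as arcs by distance in kb from the gene's anchor, the *myc2* list above and the Col-0 list below the line, with the PETs of each loop. *NIA1* carries 6 arcs in *myc2* and 7 in Col-0, while the sides of *NIA2* in Col-0 and of *NRT1.1* and *GLN1;1* in *myc2* are empty.

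The anchors of the 7 genes lay at the 5′ end, starting between 146 bp upstream of the TSS in *NIR1* and 128 bp downstream of it in *GLN1;1*. Each anchor lay wholly within the gene's region and overlapped no region of another protein-coding gene, so that its tags and loops belong to 1 gene. The anchor of *NIA2* was 3552 bp wide and that of *NIA1* 2609 bp, wider than 99.8% and 99.0% of the 15694 anchors, whose median was 879 bp. The *NIA2* anchor covered 99.1% of the gene, the *NIA1* anchor 67.4% and the *NIR1* anchor 66.7%. The *NLP7* anchor covered 24.0% of its gene and left its coding end outside.

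The genes of nitrate reductase differed from each other in their loops. *NIA1*, on chromosome 1 from 29235721 to 29239484 on the minus strand, was the only one of the 9 genes with at least 5 connecting genes, the genes at the other end of its loops, and so the only hub by the study's measure. It had 6 connecting genes in *myc2* and 7 in Col-0, and 5 of them in both. With at least 10 PETs in both lists *NIA1* had 3 loops in *myc2* and 7 loops in Col-0, and was then no hub in *myc2*. *NIA2*, the gene of the isoform that gives most nitrate reductase activity in leaves, had 2 connecting genes in *myc2* and 0 listed in Col-0. The coding sequences of the pair were identical at 73.8% of 2724 aligned bases.

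The loops of *NIA1* held 62 PETs in *myc2* (47.5 to 79.5) and 183 PETs in Col-0 (157 to 212). Its loop to *PIP5K2*, a phosphatidylinositol 4-phosphate 5-kinase, had 15 PETs in *myc2* and 45 PETs in Col-0. The loop to AT1G77770, annotated as a protein with a DUF1644 domain, had 19 PETs in *myc2* and 45 PETs in Col-0. These were the strongest loops of the 9 genes in Col-0, and both stayed listed in *myc2*. The loop to AT1G77750, a ribosomal protein S13/S18 family gene next to *NIA1*, had 10 PETs in *myc2* and 43 PETs in Col-0, a ratio of 0.233 (0.104 to 0.470). The loop to AT1G77800, a PHD finger gene, had 6 PETs in *myc2* and 16 PETs in Col-0. The loop to AT1G77730, a pleckstrin homology domain gene, had 5 PETs in *myc2* and 12 PETs in Col-0. Over the 5 shared loops the PET ratio of *myc2* to Col-0 was 0.342 (0.247 to 0.467), and the interval reaches the ratio of 0.432 (0.430 to 0.434) of all 24896 shared loops.

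The loops of *NIA1* that 1 list lacks were its longest. In Col-0 alone it reached AT1G77680, a ribonuclease II/R family gene, over 42.6 kb and *CCP2*, a ubiquitin-fold modifier, over 31.3 kb, with 11 PETs each. In *myc2* alone it reached the auxin response factor gene *ARF17* on its other side, over 34.6 kb and with 7 PETs. All 3 partner anchors were listed in both genotypes through other loops. Of the 15 pairs among the 6 partners of *NIA1* in *myc2*, 6 pairs were looped to each other. Of the 21 pairs among its 7 partners in Col-0, 10 pairs were. How often partners of other hubs are looped to each other was not computed, so this is not known to be particular to *NIA1*. Within 50 kb of *NIA1* stood 14 other anchors, of which *NIA1* looped to 6 in *myc2* and to 7 in Col-0.

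*NIA2*, on chromosome 1 from 14158452 to 14161938 on the plus strand, stood apart from other H3K4me3 anchors. Its nearest listed anchor was 126 kb away, beside a median of 3.27 kb over all anchors, and it was 1 of 8 anchors of 15694 with no other listed anchor within 100 kb. A median anchor had 16 others within 50 kb and *NIA2* had 0, although 3 other protein-coding genes lay within that distance. In *myc2* its anchor held 2597 tags, more than any other of the 303 anchors listed in *myc2* alone, whose median was 365 tags. Its 2 loops had 5 PETs each, the lowest number that list admits. One reached AT1G36990, annotated as a C-jun-amino-terminal kinase-interacting protein, over 130 kb, and the other reached AT2G36350, a protein kinase gene on chromosome 2. Loops between chromosomes made up 0.792% of the *myc2* list (256 loops, of which 194 had 5 PETs), and the Col-0 list holds 0 of them, so a loop of this kind had no counterpart to be compared with. Of the 8 anchors with no neighbour within 100 kb, 7 were listed in *myc2* alone, with 1 or 2 loops of 5 to 7 PETs, and 1 in Col-0 alone, with a loop of 10 PETs. How many tags the *NIA2* anchor held in Col-0 is not known from the lists, since tags are given with loops.

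Few anchors as rich in tags as that of *NIA2* had so few loops. Of the 1166 anchors with at least 2500 tags in *myc2*, the median had 8 loops and 10 had at most 2, *NIA2* among them. *NIA1*, with 2816 tags and 6 loops in *myc2*, was nearer to that median. *NIR1*, with 1811 tags in *myc2* and 2703 tags in Col-0, had 3 loops in each, fewer than the median of 4 loops per anchor in either list.

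**Figure D2:**
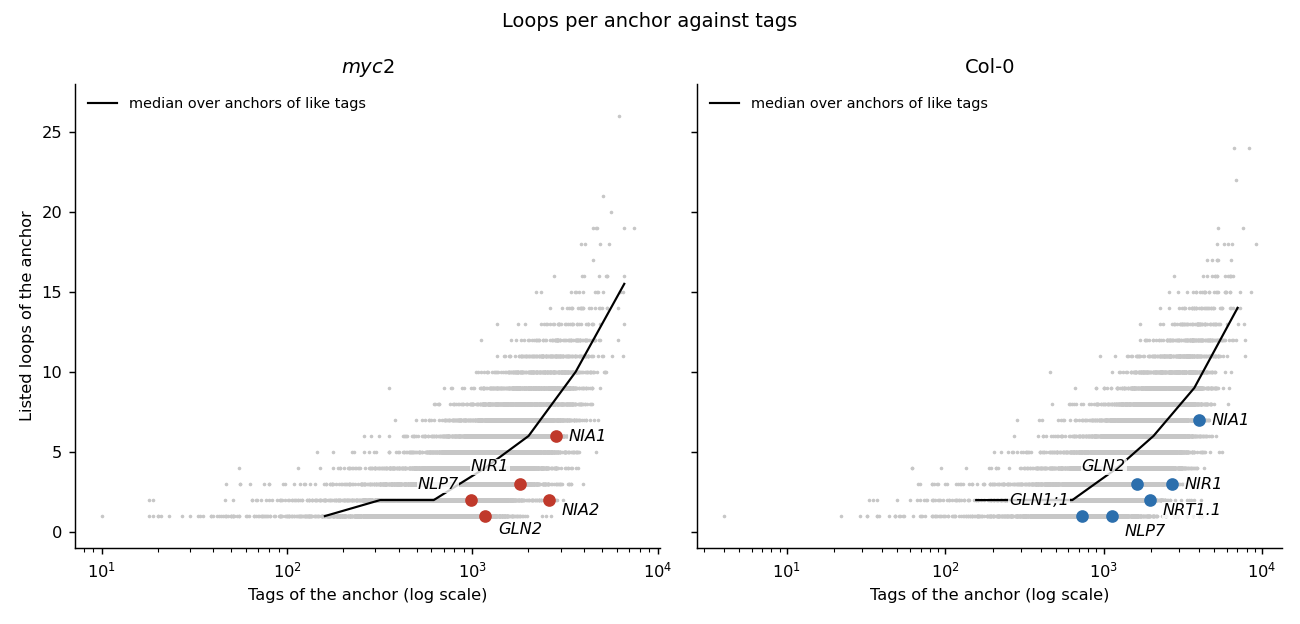
Listed loops of each anchor against its tags (log scale) in *myc2* (left) and Col-0 (right), with all anchors in grey, their median over bins of tags as a line, and the anchors of the nitrate genes in colour. *NIA2* lies at 2597 tags and 2 loops in *myc2*, and *NIA1* lies at 7 loops in Col-0.

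*NIR1*, on chromosome 2 from 6810395 to 6812941, kept its strongest loop in both lists. This loop, to the RING/U-box gene AT2G15580 over 13.2 kb, had 12 PETs in *myc2* and 26 PETs in Col-0. The short loop of 3.66 kb to the pentatricopeptide repeat gene AT2G15630 had 6 PETs in *myc2* and 13 PETs in Col-0. The PET ratio over both was 0.462 (0.249 to 0.826), with the ratio of all shared loops inside its interval. In *myc2* alone *NIR1* reached *ATHM3*, a chloroplast thioredoxin gene, with 6 PETs over 18.5 kb. In Col-0 alone it reached AT2G15695, annotated as a DUF829 protein, with 10 PETs over 24.9 kb. *NIR1* was thus joined to 3 genes in *myc2* and to 3 in Col-0, of which 2 were the same.

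The regulator *NLP7*, on chromosome 4 from 12479528 to 12484049, had its strongest loop with an anchor that no protein-coding gene region overlapped. This anchor, 4.93 kb away on the upstream side, lies over the noncoding RNA genes AT4G03085, AT4G07205 and AT4G07210 of the RefSeq annotation. The loop had 7 PETs in *myc2* and 22 PETs in Col-0, a ratio of 0.318 (0.115 to 0.771). A second loop, to the aldolase-like gene *ALL1* over 31.6 kb, was listed in *myc2* alone with 5 PETs, the lowest number that list admits.

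Plastid *GLN2*, on chromosome 5 from 13830429 to 13833542, had the shared loop with the highest PET ratio of the 9. The loop joined it to its neighbour *LSP1*, a gene of the cap-binding eIF4E family, with 20 PETs in *myc2* and 33 PETs in Col-0, a ratio of 0.606 (0.330 to 1.09). Its loops to AT5G35680 (OB-fold-like) and AT5G35690 (zinc metalloproteinase-like), of 27.3 kb and 36.5 kb, were listed in Col-0 alone with 10 PETs each, the lowest number that list admits. Both partner anchors were listed in *myc2* too, through other loops. Cytosolic *GLN1;1*, on the same chromosome from 14933286 to 14935885, had its single loop in Col-0, with 16 PETs to the pentatricopeptide repeat gene AT5G37570 over 9.16 kb. Neither end of that loop was an anchor of the *myc2* list. A nearer anchor, at AT5G37590 and 0.487 kb from the region of *GLN1;1*, was joined to it in neither list.

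The dual-affinity transporter *NRT1.1*, on chromosome 1 from 4105223 to 4109601, had an anchor above the median in tags and weak loops. Its anchor held 1975 tags in Col-0, at percentile 71.7 of all Col-0 anchors, whose median was 1470 tags. This was the second highest of the 649 anchors listed in Col-0 alone, whose median was 584 tags. Its loops reached *BAG5*, a cochaperone gene of the BAG family, over 29.4 kb with 10 PETs and AT1G12120, annotated as a DUF863 protein, over 11.1 kb with 11 PETs. Both partners were listed in *myc2* through other loops, *BAG5* with 296 tags in *myc2* and 475 tags in Col-0 and AT1G12120 with 417 tags in *myc2* and 581 tags in Col-0. Of 11 anchors within 50 kb, *NRT1.1* looped to 0 in *myc2* and 2 in Col-0.

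The high-affinity pair *NRT2.1* and *NRT2.2* had no listed anchor in either genotype, in a stretch of chromosome 1 where their neighbours had them. The genes point towards each other, *NRT2.1* from 2524023 to 2526322 and *NRT2.2* from 2527170 to 2529120. The nearest anchors were at AT1G08070, 7.40 kb from the start of *NRT2.1*, and at AT1G08125, 12.7 kb from the start of *NRT2.2*, and 13 anchors lay within 50 kb of *NRT2.1*. The loops passing over the pair numbered 7 in *myc2*, with 5 PETs each and spans of at least 1507 kb, and 0 in Col-0. Their coding sequences were identical at 89.4% of 1569 aligned bases. Of all 50-base stretches in their regions, 5.35% in *NRT2.1* and 6.00% in *NRT2.2* occurred more than once in the genome, beside at most 0.158% in the 7 other genes. A read lying wholly in such a stretch cannot be placed. Whether the reads of these libraries could be placed in the rest of both regions was not tested. In shoots these transporters, best known from roots, carried no listed loop, as was also so for *NRT2.3*, *NRT2.4* and *NRT2.6*, whereas *NRT2.5* and *NRT2.7* had loops. Whether the tissue bears on the missing loops was not tested.

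The genotypes were then compared over all 22 loops. Of the 17 Col-0 loops of these genes, 8 had no *myc2* loop overlapping both anchors (47.1%, 26.2 to 69.0%), beside 32.2% of all Col-0 loops. Of the 14 *myc2* loops, 5 had no counterpart in Col-0 (35.7%, 16.3 to 61.2%), beside 23% of all *myc2* loops. Both intervals hold the value of all loops. Among Col-0 loops of 10 to 14 PETs, 7 of 9 were missing in *myc2*, beside 57.0% (56.2 to 57.8%) of all loops of that strength, and among those of at least 20 PETs 0 of 6 were, beside 10.5% of all loops with 20 to 29 PETs and 0.913% of those with 30 or more. By span, 6 of the 7 loops of at least 20 kb were missing in *myc2*, beside 56.6% of all such loops, and 1 of 6 loops under 10 kb, beside 19.5%. Those 6 long loops had 10 or 11 PETs in Col-0 and were among the 7 missing loops of 10 to 14 PETs, so span and strength cannot be told apart here. Of the 17 Col-0 loops, 41.2% (21.6 to 64.0%) spanned at least 20 kb, beside 20.1% of all. All 5 loops listed in *myc2* alone had 5 to 7 PETs, under the 10 PETs that the Col-0 list requires.

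**Figure D3:**
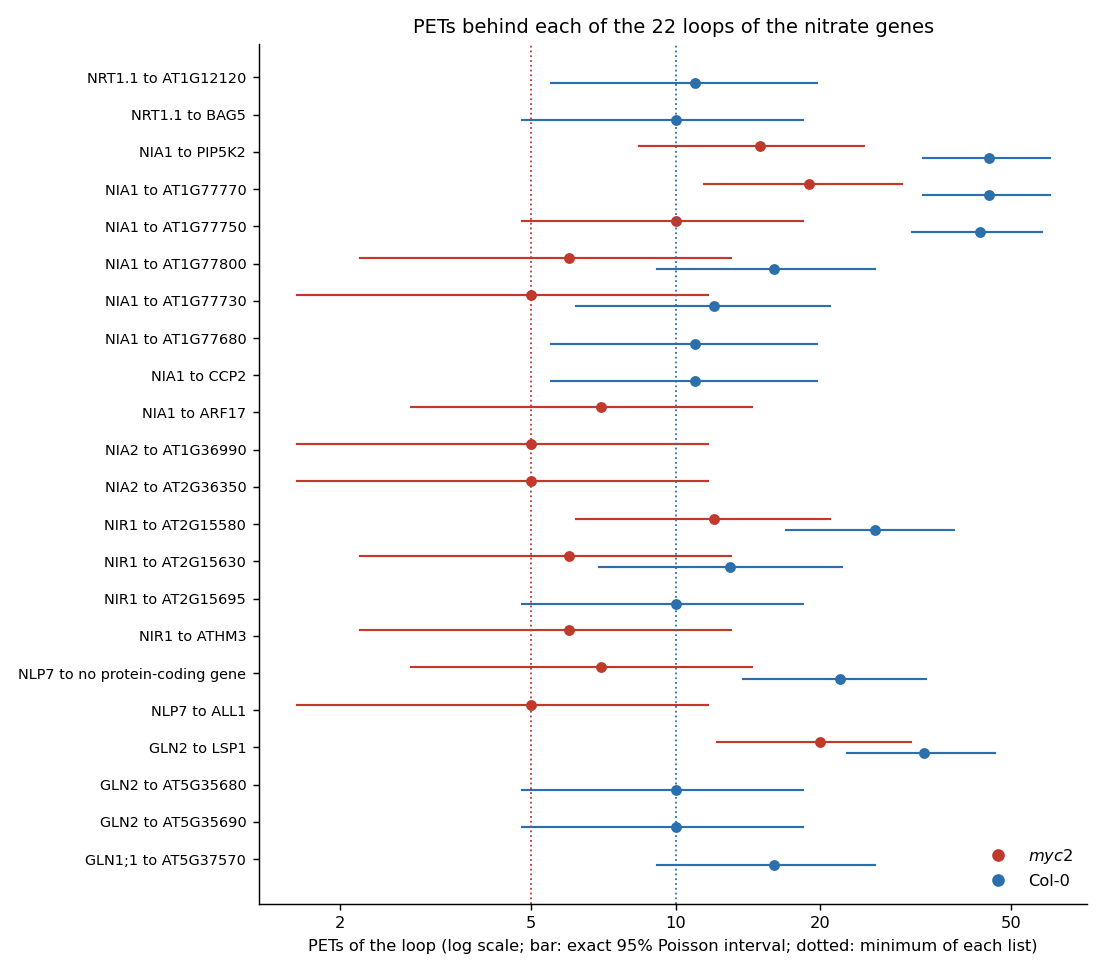
PETs of each of the 22 loops in *myc2* and Col-0 on a log scale, with exact Poisson intervals as bars and the minimum of each list as a dotted line. A loop with 1 point is listed in 1 genotype. The 9 loops with both points have fewer PETs in *myc2* in every case, and the loops listed in 1 genotype have 16 PETs or fewer.

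The 9 shared loops held 100 PETs in *myc2* and 255 PETs in Col-0, a ratio of 0.392 (0.308 to 0.496). All shared loops held 253478 PETs in *myc2* and 587381 PETs in Col-0, a ratio of 0.432, which lies within that interval. The PETs are not scaled for sequencing depth, so the ratio of all shared loops is the level against which the nitrate genes are read. *NIA1*, *NIR1* and *GLN2* had intervals that reach this ratio, as had *NLP7*. With a minimum of 10 PETs in both lists, 5 loops of these genes were left in *myc2* and 17 in Col-0, and 12 of the 17 (70.6%) had no counterpart, beside 72.3% of all loops.

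The tags of the anchors count reads at the H3K4me3 site whether or not they form a loop. Their ratios are read against the median ratio of all anchors, and not against the PET ratios, which have another level. *NIA1* had 2816 tags in *myc2* and 3974 tags in Col-0, a ratio of 0.709 (0.675 to 0.744). *NIR1* had 1811 tags in *myc2* and 2703 tags in Col-0, a ratio of 0.670 (0.631 to 0.711), at percentile 9.73 of all anchors. These intervals lie below the median ratio of 0.775 over the 14505 anchors in both lists that reached 300 tags in Col-0. *GLN2* had 1175 tags in *myc2* and 1618 tags in Col-0, a ratio of 0.726 (0.673 to 0.783), whose interval holds the median. *NLP7* had 988 tags in *myc2* and 1129 tags in Col-0, a ratio of 0.875 (0.803 to 0.954), above the median and at percentile 90.4. The anchors of *NIR1*, *NIA1* (percentile 20.5) and *GLN2* (percentile 26.9) were thus in the lower part of all anchors, and that of *NLP7* in the upper part. The median of the 4 genes was 0.717. Of the 4, 0 had a ratio under 0.620, beside 3.32% of all anchors, and 0 had a ratio over 0.969, beside 0.855%, these bounds being equal folds below and above the median of all anchors. The other 3 genes with an anchor were listed in 1 genotype and have no ratio.

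**Figure D4:**
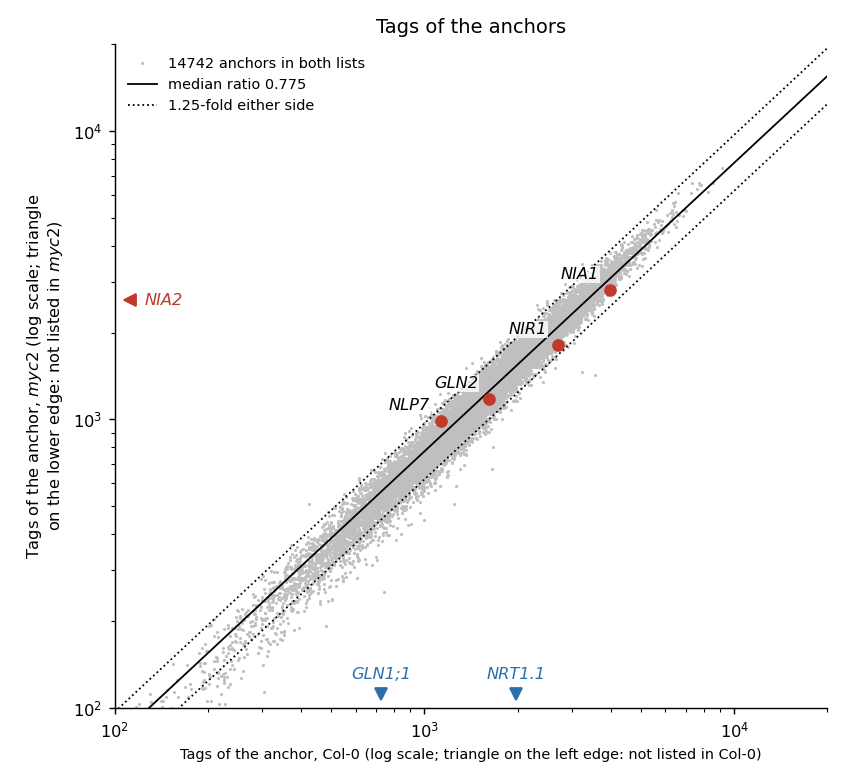
Tags of each anchor in *myc2* (vertical) and Col-0 (horizontal) on log scales, with the median ratio of 0.775 as a line and the ratios 0.620 and 0.969 as dotted lines. *NIA1*, *NIR1* and *GLN2* lie under the line and *NLP7* above it, all between the dotted lines, and triangles on the edges mark genes listed in 1 genotype only.

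No nitrate gene differed by 3 loops or more between the lists. For *NRT1.1*, *NIA2*, *NLP7*, *GLN1;1*, *NRT2.1* and *NRT2.2* a fall of 3 was not possible, since each had under 3 loops in Col-0. The median over all genes with a listed loop was 5 in Col-0. The largest differences, *myc2* minus Col-0, were -2 in *NRT1.1* and *GLN2* and 2 in *NIA2*. Of all 17797 genes with a listed loop, 13.5% had at least 3 fewer loops in *myc2* and 2.89% had at least 3 more, with a median change of -1. The 9 genes were joined to each other by no loop in either list.

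The wider pathway was read from 72 other genes of nitrate transport, regulation, cofactor synthesis, nitrogen assimilation and ammonium transport. Of these, 57 had a listed loop (79.2%, beside 64.8% of all genes), with 292 loops in *myc2* and 334 loops in Col-0. The median was 5 loops per gene in *myc2* and 6 loops per gene in Col-0, beside 4 and 5 over all genes with a listed loop. Counted by gene, 27 had fewer loops in *myc2*, 16 the same number and 14 more. The median change was 0, beside -1 over all genes with a listed loop. It was -0.5 when the gene had to cover 50% of the anchor. At least 3 fewer loops were listed in *myc2* for 9 of the 57, and at least 3 more for 1, beside the 13.5% and 2.89% of all genes. The tag ratio had a median of 0.767 over the 57 genes. All 8 genes of cofactor synthesis had a loop, as had 26 of 29 regulators, 11 of 18 transport genes and 9 of 13 assimilation genes.

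Among the regulators *NLP3*, a relative of *NLP7*, had the largest difference, with 1 loop in *myc2* and 7 loops in Col-0. *TGA1*, a bZIP factor of the nitrate response, had 4 loops in *myc2* and 8 loops in Col-0. *CBL1*, a calcium sensor that recruits the kinase CIPK23, had 4 in *myc2* and 7 in Col-0. The *CBL1* anchor and the *TGA1* anchor with most tags also overlap regions of neighbouring genes, so loops there are not theirs alone. AT1G68670, annotated as a myb-like transcription factor, was the 1 gene with at least 3 more, at 10 loops in *myc2* and 6 loops in Col-0. Of the transporters, *NRT2.7*, the vacuolar nitrate transporter of seeds, had 7 loops in *myc2* and 12 loops in Col-0, and *NRT2.5* had 2 in *myc2* and 5 in Col-0. Of the cofactor genes, *CNX7*, for a subunit of molybdopterin synthase, had 3 loops in *myc2* and 8 loops in Col-0. *CNX1*, which inserts molybdenum into the cofactor of nitrate reductase, had 1 loop in *myc2* and 4 loops in Col-0, and a tag ratio of 0.612. The *CNX1* anchor also overlaps the region of a neighbouring gene. *BT1*, of the BTB and TAZ domain proteins, had a tag ratio of 0.575, and 2 of the 57 were thus under 0.620, beside 3.32% of all anchors. Glutamate synthase *GLU1* and glutamate dehydrogenase *GDH1* each had 5 loops in *myc2* and 8 loops in Col-0. One loop joined 2 genes of the pathway, *UPM1*, which makes the siroheme precursor for nitrite reductase, and *CLC-A*, the vacuolar nitrate exchanger, with 8 PETs in *myc2* and 13 PETs in Col-0.

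**Figure D5:**
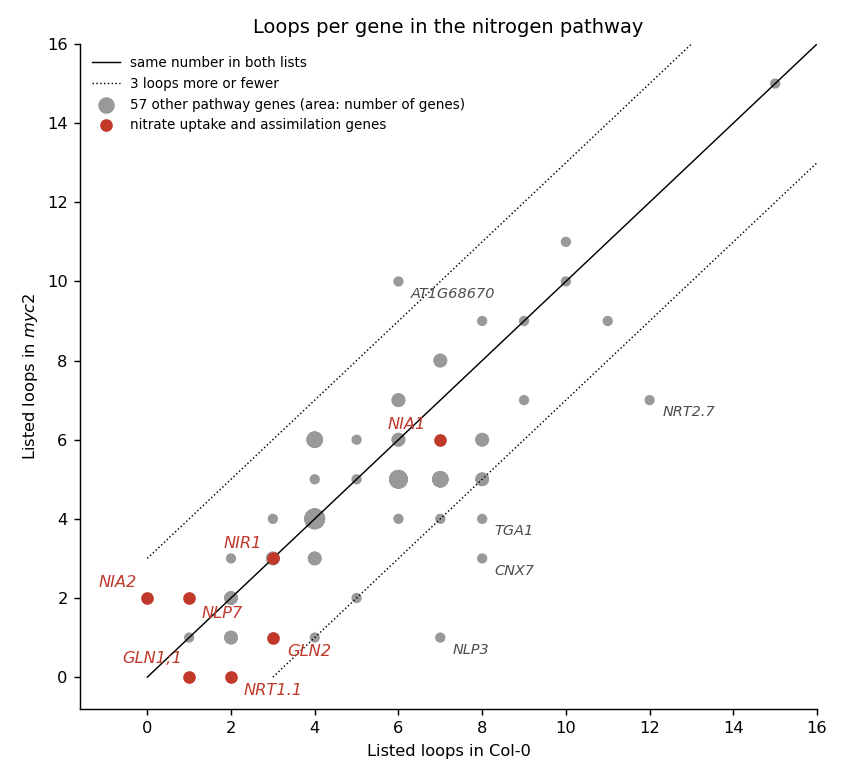
Listed loops per gene in *myc2* (vertical) and Col-0 (horizontal) for the 57 other pathway genes with a loop (grey, area by number of genes) and the 7 nitrate genes with a loop (red). The red points lie within 2 loops of the diagonal, and *NLP3*, at 1 loop in *myc2* and 7 loops in Col-0, lies farthest from it.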

How the data were processed

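Before deposit the authors ran ChIA-PET Tool V3 for linker filtering, mapping to TAIR10, removal of redundant PETs and cluster calling between H3K4me3 peaks (ChIP-seq, both genotypes merged), at an FDR under 0.05 and a PET count set by sequencing depth. The aligner's name is not given in the sources used here. As deposited, both lists hold raw counts of PETs per loop and of tags per anchor, unscaled for depth, with the authors' p-value and FDR per loop and −log10 of both.

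Here genes came from the RefSeq annotation of TAIR10.1, where all 9 genes and all 72 other pathway genes were found by locus, and all 15694 anchors ended within its chromosomes. A partner anchor was given to the gene covering at least 50% of it, by largest overlap, because expression values, by which the study chose, were not used here. Loops were shared when both anchors overlapped by at least 1 bp. PETs have exact Poisson and shares Wilson intervals, and ratios intervals from the binomial share. Matching was tested on simulated data. Alternatives were other overlaps, PET minimums of 10 and 20, an FDR under 0.001, ranks and each gene left out. The members, lists and rule for named genes (strongest and one-genotype loops per gene, largest pathway changes) were chosen with earlier results of these data known. Scripts ran in Python 3.11.15 (pandas 2.3.3, numpy 2.4.6, matplotlib 3.10.9, scipy 1.17.1).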

Additional observations from a re-analysis of the deposited data

How the results depend on the processing

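The number of loops depended on the PET minimum. With at least 10 PETs in both lists the 9 genes had 5 loops in *myc2*, with 5 connecting genes, the share of Col-0 loops missing in *myc2* was 70.6% and the share of *myc2* loops missing in Col-0 was 0%. By gene, with at least 10 PETs *NIA1* had 3 loops, *NIR1* 1, *GLN2* 1 and *NIA2* and *NLP7* 0 in *myc2*, while the Col-0 loops were the same in number. With at least 20 PETs the 9 genes had 1 loop in *myc2* and 6 loops in Col-0, these shares were 83.3% and 0%, and the PET ratio, then of 1 loop, was 0.606. At the lowest PET count that leaves at most 10000 loops in a list, 11 PETs in *myc2* (8458 loops) and 24 PETs in Col-0 (9558 loops), they had 4 loops and 4 connecting genes in *myc2*, and 5 loops and 5 connecting genes in Col-0. *NIA1* had 2 of these loops in *myc2* and 3 in Col-0. The shares were then 20.0% and 0%, beside 34.3% and 25.7% of all loops. The median change of the pathway genes was -0.5 when the gene had to cover 50% of the anchor and 0 at an overlap of 1 bp, the 2 settings run for that list. The other overlap rules, an FDR under 0.001 and loops within chromosomes moved no total or share over the 9 genes beyond its interval or by over 1.5 times. Within chromosomes *NIA2* had 1 loop in *myc2*. Leaving out 1 gene at a time gave 40.0% to 60.0% of Col-0 loops missing in *myc2* (highest without *NIA1*), 25% to 50% of *myc2* loops missing in Col-0 (lowest without *NIA2*), PET ratios of 0.360 to 0.479 (highest without *NIA1*) and median tag ratios of 0.709 to 0.726. No paired analysis was possible because the replicates of each genotype were combined into 1 list. A loop of few PETs that 1 list lacks cannot be told from a loop just under that list's minimum.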

Other observations

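Glutamate synthase *GLT1* carried 2 anchors that were joined to each other, with 13 PETs in *myc2* and 51 PETs in Col-0. The 2 anchors of *TGA1* were joined in Col-0 alone, with 21 PETs. Of the cytosolic glutamine synthetase genes beside *GLN1;1*, *GSR2* (*GLN1;2*) had 8 loops in *myc2* and 7 loops in Col-0, and *GLN1.3* (*GLN1;3*) had 7 loops in *myc2* and 9 loops in Col-0. *GLN1;4* and *GLN1;5* had no listed loop. Over *NRT1.1*, 8 loops passed in *myc2*, all spanning at least 2500 kb, and 0 in Col-0. They had at most 6 PETs each, under the 10 PETs that the Col-0 list requires. This was not particular to *NRT1.1*. In *myc2* 13 loops of at least 14784 kb passed over *NIA2* and 9 of at least 1277 kb over *GLN1;1*, with 0 in Col-0. Over *GLN2* 9 loops passed in *myc2*, the shortest of 32.6 kb, and 0 in Col-0. In Col-0 loops passed over *NIA1* (2, the shortest of 16.4 kb) and *NLP7* (1, of 92.5 kb) only.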
